A study of Mus musculus with 8 samples.

Results

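The genes described are 36 cell cycle and DNA replication genes, taken by name from the table of gene levels, out of 49585 gene identifiers. They were split by textbook role into 16 genes of the start of S phase and DNA synthesis (the replication members) and 20 genes of G2 phase and mitosis (the mitosis members), and the 2 kinds were contrasted. RNA was sequenced from the intestine of 8 C57BL/6 mice. There were 4 recipients of Klebsiella and 4 recipients of Lactobacillus, both of them genera of gut bacteria. The libraries are called by group and mouse number, and values are listed in the order of mice 1 to 4. No untreated mice are among the samples, so the comparison is between the recipients of one genus and those of the other. The sources used here do not give the age or sex of the mice, the dose, the route, the time after transfer or the gut segment. Nothing beyond separate mouse numbers describes the replicates, so p-values measure the spread between these libraries.

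The lining of the intestine is renewed from dividing cells in the crypts, and cells that leave the crypts stop dividing as they mature. In the textbook cell cycle, E2F factors switch on the genes for DNA synthesis as a cell enters S phase. Later, B-MYB and FOXM1 with the MuvB complex switch on the genes for mitosis, while in resting cells the DREAM complex keeps both kinds off. E2F factors bind sites rich in T, C and G, and MuvB binds a short element named CHR (cell cycle genes homology region), which often stands downstream of CCAAT boxes bound by the factor NF-Y.

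These elements were looked for in the promoters of the members, because most members of each kind shared their highest and their lowest library, described further on. The promoters were RefSeq promoters on build GRCm38.p6, from 250 bases before to 50 bases after the transcription start. An entry was found for 28 of the 36 members, which gave 30 promoters, with 2 each for Mcm7 and Uhrf1. Ccne2, Gins2, Mcm4, Ccna2, Aurkb, Kif20a, Foxm1 and Tpx2 had none. The letters searched on both strands were TTTCCCGC, TTTGGCGC, TTTCGCGC and TTTGCCGC for E2F, TTTGAA and TTTAAA for CHR, and CCAAT for the NF-Y box. TTTAAA reads the same on both strands and was counted once. Matches of different elements overlapped at 1 place, in an Mcm7 promoter, where an E2F match ran into a CCAAT box.

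The 6 promoters below are shown because they hold the elements in different combinations, and each is printed 5′ to 3′ on the strand of its gene, which is the minus strand for all 6. Capitals mark every match. Mcm3 (chr1:20820263-20820562) and Mcm6 (chr1:128359656-128359955) are replication members with E2F matches and no CHR match. The longest run of capitals in Mcm6 is a pair of E2F matches on opposite strands that overlap. Cdk1 (chr10:69352863-69353162) is a mitosis member with E2F, CHR and CCAAT matches. Ccnb1 (chr13:100786437-100786736), Mki67 (chr7:135716330-135716629) and Top2a (chr11:99024140-99024439) are mitosis members with CHR and CCAAT matches and no E2F match.
Mcm3: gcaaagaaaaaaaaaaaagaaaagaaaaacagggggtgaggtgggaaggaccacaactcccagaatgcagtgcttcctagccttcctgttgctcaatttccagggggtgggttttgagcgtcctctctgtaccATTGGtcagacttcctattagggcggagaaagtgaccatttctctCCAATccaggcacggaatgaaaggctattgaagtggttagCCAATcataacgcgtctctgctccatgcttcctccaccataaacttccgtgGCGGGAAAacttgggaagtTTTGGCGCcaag
Mcm6: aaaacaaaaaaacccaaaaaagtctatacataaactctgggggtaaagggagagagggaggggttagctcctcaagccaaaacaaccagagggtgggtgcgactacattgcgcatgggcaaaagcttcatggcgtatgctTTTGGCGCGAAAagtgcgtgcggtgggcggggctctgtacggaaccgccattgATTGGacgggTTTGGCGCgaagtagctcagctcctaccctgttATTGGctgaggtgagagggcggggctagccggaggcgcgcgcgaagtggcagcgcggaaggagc
Cdk1: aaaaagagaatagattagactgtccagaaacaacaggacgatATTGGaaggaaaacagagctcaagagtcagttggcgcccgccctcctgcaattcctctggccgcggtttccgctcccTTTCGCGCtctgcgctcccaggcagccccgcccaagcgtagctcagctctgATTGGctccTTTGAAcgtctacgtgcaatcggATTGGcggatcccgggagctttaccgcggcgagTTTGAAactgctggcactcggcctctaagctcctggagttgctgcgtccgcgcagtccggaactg
Ccnb1: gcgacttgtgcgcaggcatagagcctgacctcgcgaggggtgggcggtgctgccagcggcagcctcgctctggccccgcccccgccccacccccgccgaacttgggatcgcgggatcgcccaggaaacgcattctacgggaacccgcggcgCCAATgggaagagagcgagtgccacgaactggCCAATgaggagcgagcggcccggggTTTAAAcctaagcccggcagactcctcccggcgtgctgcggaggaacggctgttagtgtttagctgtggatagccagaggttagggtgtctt
Mki67: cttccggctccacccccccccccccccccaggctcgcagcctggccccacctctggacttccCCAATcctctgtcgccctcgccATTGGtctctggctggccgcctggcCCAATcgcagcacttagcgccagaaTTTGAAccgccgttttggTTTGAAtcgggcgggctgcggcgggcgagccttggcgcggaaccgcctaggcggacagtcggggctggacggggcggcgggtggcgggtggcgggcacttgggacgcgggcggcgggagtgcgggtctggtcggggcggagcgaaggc
Top2a: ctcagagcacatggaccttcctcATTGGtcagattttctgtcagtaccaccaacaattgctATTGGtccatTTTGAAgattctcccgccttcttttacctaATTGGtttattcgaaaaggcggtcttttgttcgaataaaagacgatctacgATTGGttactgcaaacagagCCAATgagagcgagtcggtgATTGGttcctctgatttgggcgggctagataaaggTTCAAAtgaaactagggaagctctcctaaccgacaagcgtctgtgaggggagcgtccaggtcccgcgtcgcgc

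An E2F match stood in 6 of 15 replication promoters (40%) and in 1 of 15 mitosis promoters (6.67%), beside 2.26% of all 32851 promoters in the RefSeq table. The replication promoters with one were those of Cdc6, Mcm3, Mcm5, Mcm6, Mcm7 and Uhrf1, and the mitosis promoter was that of Cdk1. A CHR match stood in 5 of 15 replication promoters (33.3%) and 14 of 15 mitosis promoters (93.3%), beside 27.6% of all promoters. Within 50 bases of the start, the shares were 20% of replication promoters and 80.0% of mitosis promoters, beside 8.28% of all. The CCAAT box was frequent in both kinds, at 73.3% of replication and 93.3% of mitosis promoters, beside 37.4% of all. A CHR match together with at least 2 CCAAT boxes stood in 9 mitosis promoters (60.0%) and 2 replication promoters (13.3%), beside 3.13% of all. Bub1 was the mitosis promoter with no CHR match, and Birc5 the one with no CCAAT box. A match describes letters, and a promoter without one may still be bound by the factor. The E2f1 window (chr2:154569377-154569676) lay wholly inside the E2f1 locus, which begins at 154569892 on the minus strand. Its lack of a match does not describe the sequence before that point. The windows of Cdc6, both of Mcm7 and the downstream one of Uhrf1 also lay wholly inside their loci.

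**Figure D1:**
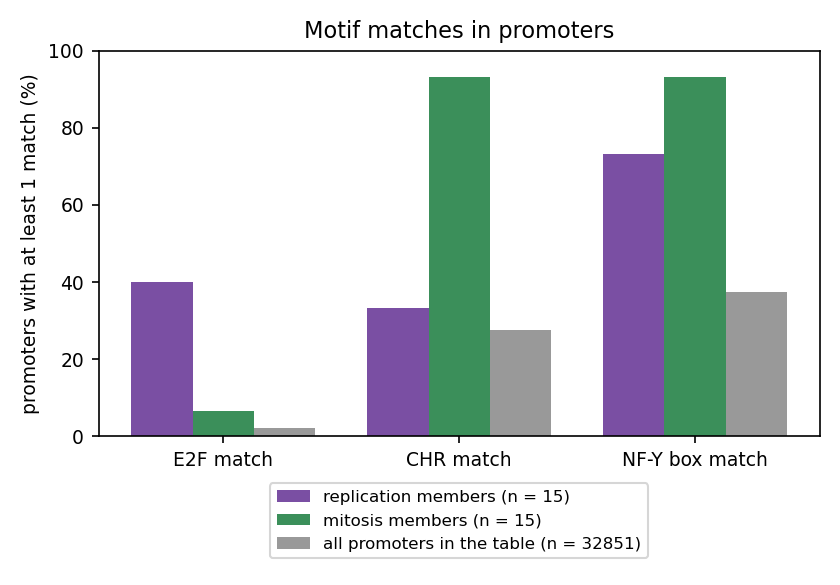
Share of promoters (percent, y axis) with at least 1 match to each of 3 elements (x axis; the NF-Y box is the CCAAT box), for 15 replication and 15 mitosis promoters and all 32851 promoters. E2F matches stood in 40% of replication and 6.67% of mitosis promoters, and CHR matches in 33.3% of replication and 93.3% of mitosis promoters.

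Gene levels were deposited as FPKM (reads relative to gene length and sequencing depth), so levels can be set side by side between genes. The reads in genes recovered from these values came to between 15753959 and 21548070 per library, and single members had between 32 and 5366 reads in a library. Some libraries stood apart from the rest of their group. Hoxb6, a marker of position along the body, was at 40.2 FPKM in Klebsiella 3 and 45.2 FPKM in Lactobacillus 2, and at 1.16 to 3.87 FPKM in the other libraries. Summed over 4 Hox genes of gut position, levels were 48.3 to 84.8 FPKM in Klebsiella and 81.6 to 95.7 FPKM in Lactobacillus recipients. The summed level of 5 pancreatic acinar genes was 811 FPKM in Klebsiella 2 and 235 FPKM in Lactobacillus 3, and at most 5.53 FPKM in the others. The summed level of 5 adipocyte genes was 240.2 FPKM in Lactobacillus 4 and 25.03 to 58.4 FPKM in the other Lactobacillus recipients. In Klebsiella recipients it was 1.90 to 20.04 FPKM. The share of bases at quality 30 or above was 90.65% in Klebsiella 4 and 94.03% to 94.57% in the others. The label intestine was met by 8 epithelial markers, such as Epcam, which summed to between 6860 and 9241 FPKM in Klebsiella recipients and between 6250 and 8363 FPKM in Lactobacillus recipients.

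No member differed between the recipient groups beyond the spread between mice. All 36 members passed the filter of a mean of at least 0.5 FPKM, and 0 of 36 passed an adjusted p under 0.05 with limma (Benjamini-Hochberg over 16865 genes), as did 0 genes of all tested (0.0%). At an unadjusted p under 0.05 the count was also 0 of 36, beside 6.07% of all genes tested (1024 genes; 2.55% were those higher in Klebsiella recipients). The voom test on recovered reads called 0 members and 0 genes at an adjusted p under 0.05, with 0 members and 1046 genes at an unadjusted p under 0.05. The smallest adjusted p of a member with limma was 0.774, for Plk1. The groups overlapped for every member, while they did not overlap for 2.99% of all genes.

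The direction of the small differences was mostly towards the Klebsiella recipients. The log2 difference, Klebsiella minus Lactobacillus on the log2(FPKM + 0.5) scale, was above 0 for 31 of 36 members, beside 46.4% of all genes. It was above 0 for 11 of 16 replication members, with a median of 0.06 and a range of -0.11 to 0.45. For the mitosis members it was above 0 in 20 of 20, with a median of 0.27 and a range of 0.09 to 0.47. The median over all genes was -0.02. Members share the same 8 mice, so these counts are not independent signals. The direction depended on single libraries, most on Lactobacillus 4. Without it, 8 of 36 members were above 0, and the medians were -0.16 for replication and -0.04 for mitosis members. Without Klebsiella 1 the medians were -0.02 and 0.17, with 26 of 36 members above 0. The count was 35 of 36 without Klebsiella 3 and also without Lactobacillus 1. In bulk tissue, fewer dividing cells and less RNA per dividing cell cannot be told apart.

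**Figure D2:**
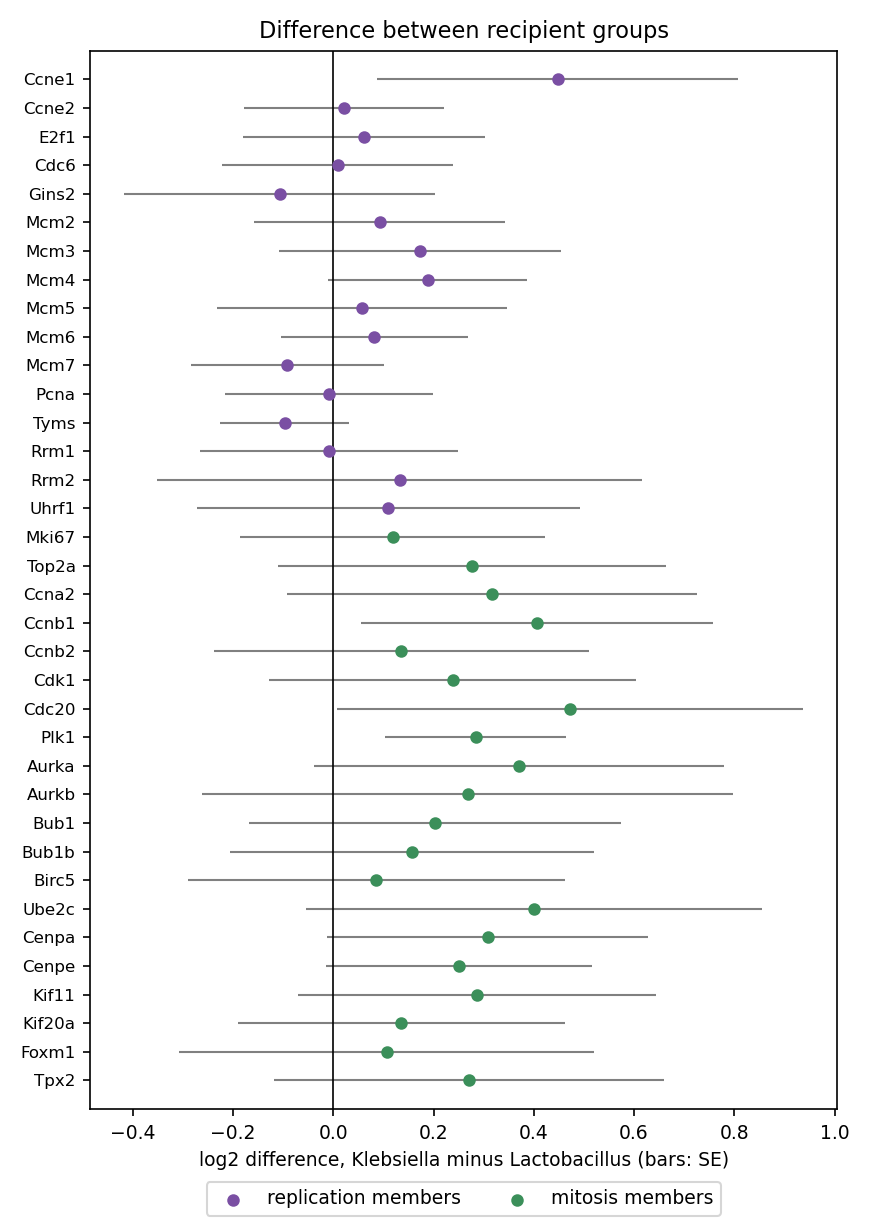
Log2 difference (x axis, Klebsiella minus Lactobacillus recipients, n = 4 each) of the 36 members (y axis), with bars of 1 SE. The 20 mitosis members lie between 0.09 and 0.47 and the 16 replication members between -0.11 and 0.45, and none passed the test.

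Among the replication members, the gene with the largest difference was Ccne1, a cyclin that activates Cdk2 at the entry to S phase. Its level was 7.42, 6.45, 4.44 and 7.94 FPKM in Klebsiella recipients and 9.03, 4.47, 4.89 and 2.10 FPKM in Lactobacillus recipients. The highest and the lowest value both belonged to Lactobacillus recipients, mice 1 and 4, so the Klebsiella values lay inside the range of the other group. The log2 difference was 0.45 (SE 0.36, adjusted p = 0.802 with limma), 0.13 without Lactobacillus 4 and 0.75 without Lactobacillus 1 (unadjusted p = 0.0366, adjusted p = 0.406 with limma). The 32 reads behind the lowest value give it a counting error of 17.7%. Its paralogue Ccne2 was at 3.17 to 4.46 FPKM in Klebsiella recipients and 3.07 to 5.52 FPKM in Lactobacillus recipients, with a difference of 0.02. Ccne2 was the 1 member whose lowest value was not in Lactobacillus 4, and 5622 bases of its locus overlap Ints8 on the opposite strand, which was at 18.2 to 23.3 FPKM in Klebsiella and 15.9 to 21.6 FPKM in Lactobacillus recipients. The sources used here do not say whether the authors counted by strand. E2f1, a factor that switches on S phase genes, was at 3.97, 4.61, 2.66 and 4.12 FPKM in Klebsiella recipients and 5.10, 3.92, 3.63 and 2.24 FPKM in Lactobacillus recipients, and the groups overlapped over nearly their whole range.

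The MCM genes encode the helicase that unwinds DNA at origins of replication, and Cdc6 helps to load it. Mcm4 was at 8.01, 8.33, 5.95 and 8.44 FPKM in Klebsiella recipients and 8.79, 6.97, 6.82 and 4.56 FPKM in Lactobacillus recipients. Klebsiella 3 and Lactobacillus 4 were the low libraries, and the other values of both groups overlapped. Its log2 difference was 0.19 (SE 0.20, adjusted p = 0.844 with limma), and 0.024 without Lactobacillus 4. Mcm3 was at 20.3, 20.8, 12.2 and 18.1 FPKM in Klebsiella recipients and 25.2, 16.4, 14.5 and 9.42 FPKM in Lactobacillus recipients. As for Mcm4, Lactobacillus 1 was highest and Lactobacillus 4 lowest, with all Klebsiella values between them. Its log2 difference was 0.17 (SE 0.28, adjusted p = 0.908 with limma), and -0.06 without Lactobacillus 4.

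The remaining helicase genes shared their highest and their lowest library, but not the order of the mice between these. The mean levels of Mcm2, Mcm5, Mcm6 and Mcm7 were 30.6, 22.5, 27.9 and 36.5 FPKM over the 8 libraries, and their log2 differences were 0.09, 0.06, 0.08 and -0.09. Each was highest in Lactobacillus 1 and lowest in Lactobacillus 4. Mcm7 overlaps Cops6 by 64 bases and Ap4m1 by 421 bases on the opposite strand. Cdc6 had the lowest mean level of all members (1.91 FPKM) and was the 1 replication member that was not highest in Lactobacillus 1; its values were 1.78, 2.74, 1.53 and 1.601 FPKM in Klebsiella recipients and 2.43, 1.87, 2.16 and 1.17 FPKM in Lactobacillus recipients. Gins2, part of the active helicase together with the MCM proteins, was at 2.67 to 6.02 FPKM in Klebsiella and 2.56 to 7.25 FPKM in Lactobacillus recipients, and its log2 difference of -0.11 was the lowest of the members. The Gins2 locus overlaps Gse1 by 2758 bases on the opposite strand, and Gse1 was at 28.6 to 47.3 FPKM in Klebsiella and 25.7 to 45.1 FPKM in Lactobacillus recipients.

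Pcna, the sliding clamp that holds DNA polymerase on its template, had the highest level of all members. It was at 177, 155, 112 and 161 FPKM in Klebsiella recipients and 206, 161, 142 and 107 FPKM in Lactobacillus recipients. The means were 151 ± 27.7 FPKM in Klebsiella and 154 ± 41.3 FPKM in Lactobacillus mice (± SD, n = 4), and the groups overlapped over most of their range. Its log2 difference was -0.01 (SE 0.21, adjusted p = 0.998 with limma), and the sign changed to 0.02 when libraries were rescaled to a constant total. Tyms, which makes thymidylate for DNA synthesis, was the steadiest member, with a highest value 1.39 times the lowest. Its values were 19.6, 17.7, 16.5 and 21.4 FPKM in Klebsiella recipients and 22.5, 20.2, 21.8 and 16.3 FPKM in Lactobacillus recipients. Klebsiella 3 and Lactobacillus 4 were low again, but by little, and the log2 difference was -0.10 (SE 0.13, adjusted p = 0.879 with limma), -0.20 without Lactobacillus 4 and -0.038 without Klebsiella 3.

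The other genes of nucleotide and chromatin supply varied more. Rrm2, the small subunit of ribonucleotide reductase, was at 21.8, 17.7, 7.02 and 17.6 FPKM in Klebsiella recipients and 23.6, 13.6, 19.5 and 5.12 FPKM in Lactobacillus recipients, and its highest value was 4.61 times its lowest, the widest span of the replication members. The large subunit Rrm1 spanned 2.04 times, with means of 31.7 ± 8.83 FPKM in Klebsiella and 32.0 ± 8.94 FPKM in Lactobacillus recipients (± SD, 4 mice in each group). Uhrf1, which helps to copy DNA methylation onto new strands, spanned 3.81 times and had a log2 difference of 0.11 (SE 0.38). Within each of these genes, Klebsiella 3 and Lactobacillus 4 held the lowest values of their groups.

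Among the mitosis members, Mki67 encodes the Ki-67 antigen by which cycling cells are stained. It was at 39.3, 32.7, 25.1 and 52.6 FPKM in Klebsiella recipients and 45.1, 29.2, 46.7 and 19.8 FPKM in Lactobacillus recipients. Klebsiella 4 was highest and Lactobacillus 4 lowest, and the means were 37.4 ± 11.6 FPKM in Klebsiella and 35.2 ± 13.0 FPKM in Lactobacillus recipients (± SD, 4 mice in each group). The log2 difference was 0.12 (SE 0.30, adjusted p = 0.947 with limma). It was -0.06 without Klebsiella 4 and -0.13 without Lactobacillus 4. Top2a, the topoisomerase that untangles sister DNA, was at 104, 78.1, 52.4 and 133 FPKM in Klebsiella recipients and 110.0, 61.4, 104 and 37.2 FPKM in Lactobacillus recipients, with the same highest and lowest library as Mki67.

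The mitotic cyclins and their kinase were all lowest in Lactobacillus 4. Ccnb1, the cyclin that drives entry into mitosis with Cdk1, was at 31.5, 19.5, 15.03 and 30.6 FPKM in Klebsiella recipients and 25.3, 15.8, 24.5 and 9.06 FPKM in Lactobacillus recipients. Klebsiella 1 and 4 were above all Lactobacillus values, while Klebsiella 2 and 3 lay among them. The log2 difference was 0.41 (SE 0.35, adjusted p = 0.812 with limma), and 0.11 without Lactobacillus 4. Ccnb2, Ccna2 and Cdk1 had mean levels of 26.0, 27.2 and 28.8 FPKM over the libraries, and log2 differences of 0.14, 0.32 and 0.24. Ccna2, which acts in S phase as well as at the entry to mitosis, was placed with the mitosis members, and its highest value was in Klebsiella 4, as for Cdk1.

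Plk1, a kinase needed for spindle assembly and exit from mitosis, had the smallest p of the members. It was at 135, 138, 100.4 and 128 FPKM in Klebsiella recipients and 131, 104, 109.7 and 72.6 FPKM in Lactobacillus recipients. Klebsiella 3 was the low Klebsiella library and still above Lactobacillus 4, while Lactobacillus 1 was above Klebsiella 4. The log2 difference was 0.28 (SE 0.18, adjusted p = 0.774 with limma), and 0.12 without Lactobacillus 4. Its span of 1.90 times was the narrowest of the mitosis members, and its level of 115 FPKM was their highest. Plk1 is overlapped on the opposite strand by 1016 bases of Gm44985, and Ern2, a stress sensor of mucus-secreting cells, lies 19 bases away on that strand. Gm44985 was at 35.3 to 47.7 FPKM in Klebsiella and 30.7 to 44.3 FPKM in Lactobacillus recipients. Ern2 was at 50.8, 56.1, 41.7 and 51.4 FPKM in Klebsiella recipients and 44.2, 39.7, 35.98 and 36.05 FPKM in Lactobacillus recipients, so it was lower in every mouse than Plk1. Without strand, reads from bases shared by Plk1 and Gm44985 could belong to either gene. Overlaps were taken between whole loci, introns included, and their part in the levels was not tested. Aurka, the kinase of the spindle poles, and Tpx2, which activates it, had log2 differences of 0.37 and 0.27. Aurkb, the kinase of the chromosomal passenger complex, had the widest span of all members, 5.31 times, with 35.1, 22.4, 11.9 and 40.6 FPKM in Klebsiella recipients and 37.5, 18.2, 33.6 and 7.66 FPKM in Lactobacillus recipients. Birc5, of the same complex, was highest in Lactobacillus 3 and had the lowest log2 difference of the mitosis members, 0.09.

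Cdc20 activates the anaphase-promoting complex, which ends mitosis by marking cyclin B for breakdown. It was at 60.2, 43.1, 24.8 and 60.6 FPKM in Klebsiella recipients and 48.9, 31.6, 53.7 and 12.3 FPKM in Lactobacillus recipients. Klebsiella 3 and Lactobacillus 4 were the low libraries, and the other mice of both groups overlapped. Its log2 difference of 0.47 was the largest of all members over the 8 libraries (SE 0.46, adjusted p = 0.83 with limma). It was 0.028 without Lactobacillus 4, below that of Ccne1, and 0.75 without Klebsiella 3. Ube2c, the ubiquitin-conjugating enzyme of the same complex, had a difference of 0.40 (SE 0.46), and the checkpoint genes Bub1 and Bub1b, which hold it back, 0.20 and 0.16. Cenpa, the histone variant that marks centromeres, was at 36.6, 28.0, 21.8 and 41.9 FPKM in Klebsiella recipients and 34.4, 25.7, 34.0 and 13.0 FPKM in Lactobacillus recipients. Lactobacillus 4 was again far below the rest, and the log2 difference was 0.31 (SE 0.32, adjusted p = 0.842 with limma), and 0.0012 without that library. The motor genes Cenpe, Kif11 and Kif20a, for chromosome capture, spindle poles and cell division, had differences of 0.25, 0.29 and 0.14. Foxm1, the factor that switches on many of these genes, had one of 0.11 and was the 1 mitosis member that was highest in Lactobacillus 1. Opposite-strand genes also overlap Ccna2 (Exosc9, by 863 bases), Cdc20 (Elovl1, by 53 bases) and Kif20a (Cdc23, by 2327 bases), so part of their reads could belong to either gene.

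**Figure D3:**
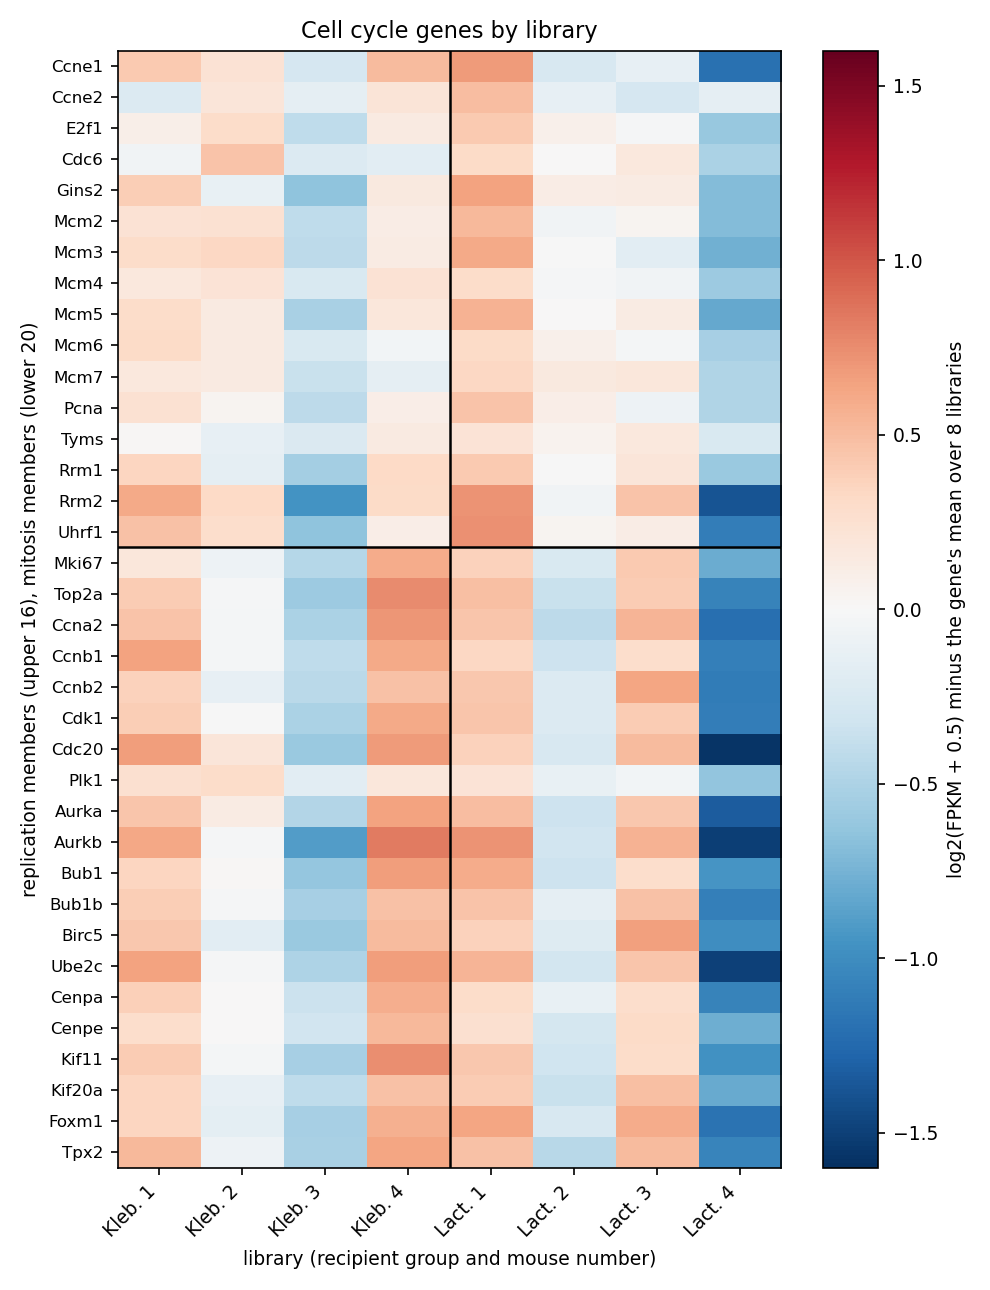
Levels of the 36 members (rows, replication members above the line) in the 8 libraries (columns, Klebsiella recipients on the left), as log2(FPKM + 0.5) minus the mean of each gene. Lactobacillus 4 is the lowest library for 35 of 36 members, Lactobacillus 1 the highest for 15 of 16 replication members and Klebsiella 4 the highest for 14 of 20 mitosis members.

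Single mice differed widely within each group. Lactobacillus 4 held the lowest value of 35 of 36 members, while it held the lowest value of 17.8% of all genes. This library also had the lowest share of G and C bases (49.37%) and the lowest spliced share of uniquely mapped reads (39.2%). Lactobacillus 1, the highest library for 15 of 16 replication members, had the highest of both (51.2% and 44.3%), while Klebsiella 3, the other low library, lay among the rest (50.35% and 42.7%). The part of these shares in the levels was not tested. The median span from the lowest to the highest library was 2.31 times for replication and 3.43 times for mitosis members, beside 1.72 times for all genes. The median SD of log2 levels within groups was 0.39 for replication and 0.63 for mitosis members, beside 0.24 for all genes. These spans set the precision of the comparison: the median SE of a log2 difference was 0.25 for replication and 0.37 for mitosis members.

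Most replication members and most mitosis members were highest in different mice, although the kinds largely varied together. The median correlation (Pearson r of log2 levels) between a replication and a mitosis member was 0.82, and 0.66 without Lactobacillus 4. Over all pairs of genes tested the median was 0.01. Lactobacillus 1 was highest for 15 of 16 replication members, beside 8.41% of all genes. Klebsiella 4 was highest for 14 of 20 mitosis members, beside 13.5% of all genes. Pairs of mice close in mitosis level, chosen after their values were seen, differed in replication level. Lactobacillus 1 and 3 had mean mitosis levels 0.02 apart on the log2 scale, with 11 of 20 members higher in Lactobacillus 1. The replication level was higher in Lactobacillus 1 by 0.43. Klebsiella 1 and Lactobacillus 3 were also close in mitosis level, with 10 of 20 members higher in Klebsiella 1, and 13 of 16 replication members were higher in Klebsiella 1, by 0.18 on average.

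As a mean log2(FPKM + 0.5) per library, the replication level was 4.04, 3.97, 3.39 and 3.95 in Klebsiella recipients and 4.29, 3.81, 3.86 and 3.13 in Lactobacillus recipients. The mitosis level was 4.85, 4.41, 3.93 and 5.02 in Klebsiella recipients and 4.86, 4.15, 4.85 and 3.33 in Lactobacillus recipients. Klebsiella 3 and Lactobacillus 4 were low in both, and the groups overlapped in both. The mean replication level was 3.84 ± 0.30 in Klebsiella recipients and 3.77 ± 0.48 in Lactobacillus recipients (± SD, 4 mice in each group), a difference of 0.07 (SE 0.28). The mean mitosis level was 4.55 ± 0.49 in Klebsiella recipients and 4.30 ± 0.72 in Lactobacillus recipients (± SD, 4 mice in each group), a difference of 0.25 (SE 0.44). Neither difference exceeded its SE.

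The contrast of replication with mitosis, the replication level minus the mitosis level, was -0.81, -0.44, -0.54 and -1.07 in Klebsiella recipients and -0.58, -0.34, -0.99 and -0.20 in Lactobacillus recipients. The most negative values were those of Klebsiella 4 and Lactobacillus 3, and the least negative that of Lactobacillus 4. The group means were -0.71 ± 0.28 in Klebsiella and -0.53 ± 0.35 in Lactobacillus recipients (± SD, 4 mice in each group), a difference of -0.19 (SE 0.22). The difference was -0.43 without Klebsiella 2 and Lactobacillus 3, the libraries with pancreatic transcripts, and -0.33 when log2 Hoxd13 entered the fit as a covariate. Hoxd13 belonged to the 4 Hox genes of gut position, of which 0 had a log2 difference above 0 (median -0.41), beside 46.4% of all genes. The part of gut position was not tested. The difference in the contrast was -0.08 without Lactobacillus 4 and -0.07 without Klebsiella 4, which also had the lowest base quality. The part of base quality was not tested.

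**Figure D4:**
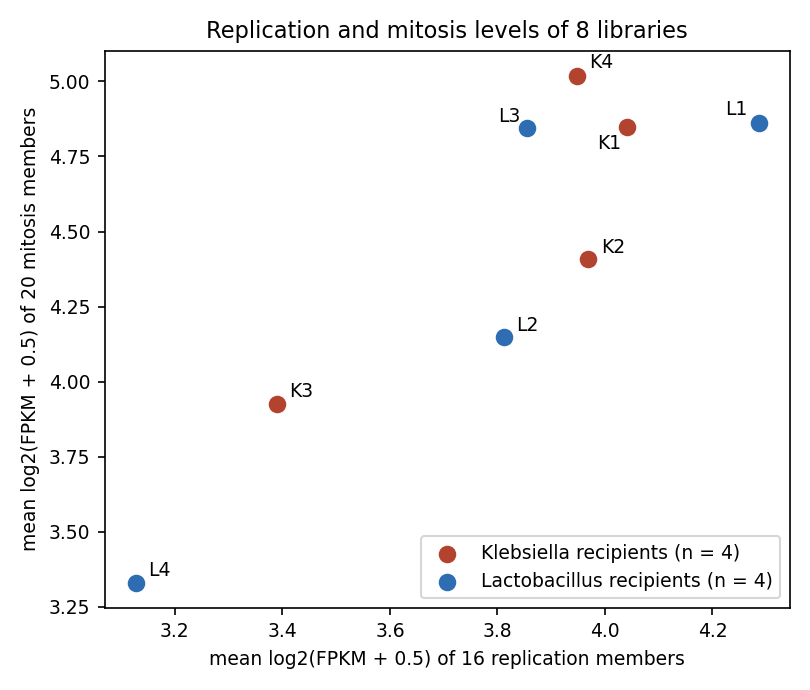
Mean log2(FPKM + 0.5) of the 16 replication members (x axis) and the 20 mitosis members (y axis) in each library (K, Klebsiella; L, Lactobacillus recipients; the number is the mouse). K3 and L4 are lowest on both axes, K4 has the highest mitosis level at 5.02 and L1 the highest replication level at 4.29.

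Other cell cycle genes were read from 9 lists of 152 genes, of which 150 were tested. With limma, 0 of the 150 passed an adjusted p under 0.05. At an unadjusted p under 0.05, 1 was higher (Orc4) and 1 lower (Gmnn) in Klebsiella recipients. Over all genes tested the share was 6.07%, so these lists held fewer such genes than that share. The log2 difference was above 0 for 95 of 150, beside 46.4% of all genes, with a median of 0.05. Lactobacillus 4 was the lowest library for 98 of them (65.3%), beside 17.8% of all genes, so the low levels in this mouse reached well past the members. Gmnn encodes geminin, which blocks a new round of origin loading; it was at 26.8, 26.5, 24.6 and 29.0 FPKM in Klebsiella recipients and 30.8, 33.5, 32.2 and 28.8 FPKM in Lactobacillus recipients. The groups overlapped through Klebsiella 4, and the log2 difference was -0.23 (SE 0.09, adjusted p = 0.774 with limma). Orc4, a subunit of the origin recognition complex, was at 30.9, 29.1, 29.6 and 31.6 FPKM in Klebsiella recipients and 26.1, 26.1, 24.0 and 29.7 FPKM in Lactobacillus recipients. Here Lactobacillus 4 was the library that overlapped, and the difference was 0.20 (SE 0.09, adjusted p = 0.774 with limma).

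The medians of the 5 lists for entry into S phase and DNA synthesis lay between -0.06 and 0.14. The list of E2F, DP and MuvB factors, counted among these, also holds factors that switch on genes for mitosis. Of origin licensing and firing genes 7 of 17 were above 0, beside 46.4% of all genes, with a median log2 difference of -0.06. Of replication fork genes 11 of 25 were above 0, with a median of -0.03, and the smallest p values belonged to Timeless, which protects the fork (-0.41, SE 0.20, adjusted p = 0.774 with limma), and Rfc1, a clamp loader subunit (-0.17, SE 0.09). For nucleotide supply it was 6 of 9, with a median of 0.06, 0.16 for Umps, an enzyme of pyrimidine synthesis, and 0.20 for Tk1, thymidine kinase. For E2F, DP and MuvB factors it was 9 of 14, with a median of 0.12, -0.20 for Lin37 of the MuvB complex and 0.17 for Tfdp1, a partner of the E2F factors. All 7 G1 cyclins and kinases were above 0, with a median of 0.14, 0.14 for the cyclin Ccnd3 and 0.20 for the kinase Cdk2.

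The medians of the 3 lists for mitosis lay between 0.05 and 0.17, which overlapped the range of the S phase lists, and no difference between lists was tested. Of spindle, condensin and cytokinesis genes 30 of 33 were above 0, with a median of 0.17, and the smallest p values belonged to Pttg1, the securin that holds back the separation of sister chromatids (-0.17, SE 0.09, adjusted p = 0.774 with limma), and to the spindle pole gene Aspm (0.27, SE 0.21). Of kinetochore and checkpoint genes 15 of 20 were above 0, with a median of 0.05, 0.41 for the kinetochore scaffold Knl1 and 0.42 for Sgo1, which protects cohesin. Of mitotic kinases and regulators of the anaphase-promoting complex 9 of 16 were above 0, with a median of 0.06, -0.31 for Fbxo5, an inhibitor of that complex, and -0.19 for Wee1, which holds Cdk1 inactive. Over all genes tested, 46.4% were above 0, and the genes of a list share the same mice. None of these lists held a gene past an adjusted p under 0.05.

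Most CDK inhibitors and pocket proteins had differences below 0, none of which passed the test. Of 9 tested, 1 was above 0 (Cdkn1a, which encodes the inhibitor p21, at 0.55), beside 46.4% of all genes. The median log2 difference was -0.13, and the pocket proteins Rb1, Rbl1 and Rbl2 were at -0.08, -0.10 and -0.11. These genes share the same mice, so the count does not hold independent signals. Cdkn2b, an inhibitor of the G1 kinases, was at 13.9, 33.8, 34.1 and 26.8 FPKM in Klebsiella recipients and 31.9, 41.2, 39.5 and 44.8 FPKM in Lactobacillus recipients. Klebsiella 1 was far below the rest, and Lactobacillus 1 lay among the Klebsiella values. The log2 difference was -0.60 (SE 0.27, adjusted p = 0.774 with limma), and that of Cdkn2d, of the same family, was -0.27 (SE 0.15). Cdkn1b, the inhibitor p27 that is high in resting cells, was named after its values were seen. It was at 30.1, 40.8, 52.7 and 22.7 FPKM in Klebsiella recipients and 31.4, 44.97, 48.8 and 59.1 FPKM in Lactobacillus recipients. Klebsiella 3 and Lactobacillus 4, the mice with the lowest replication and mitosis levels, had the highest Cdkn1b of their groups, and Klebsiella 4, with the highest mitosis level, had the lowest of all. Of the 9 inhibitors and pocket proteins, 5 were highest in Lactobacillus 4, beside 20.6% of all genes tested. Cdkn2c, another inhibitor of the G1 kinases, ran the other way, at 13.7, 10.2, 8.50 and 10.4 FPKM in Klebsiella recipients and 16.8, 10.1, 16.7 and 7.46 FPKM in Lactobacillus recipients, lowest in Lactobacillus 4 and in Klebsiella 3 of the Klebsiella mice.

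Markers of the tissue also differed between the mice that were high and low in the members. The summed level of 8 markers of differentiated colonocytes was 1041, 2884, 3585 and 1582 FPKM in Klebsiella recipients and 2413, 2308, 1477 and 3896 FPKM in Lactobacillus recipients. The 2 highest sums belonged to Klebsiella 3 and Lactobacillus 4, the mice lowest in the members, but abundant genes carry most of a sum. As a mean log2(FPKM + 0.5) the list was at 5.81, 7.32, 7.27 and 6.596 in Klebsiella recipients and 7.10, 6.79, 6.22 and 7.68 in Lactobacillus recipients, so that Klebsiella 2 was above Klebsiella 3. Of the 8 genes, 5 were highest in Lactobacillus 4 and 2 in Klebsiella 3, beside 20.6% and 14.5% of all genes tested. The mitosis members summed to 739, 574, 405 and 821 FPKM in Klebsiella recipients and 736, 465, 713 and 268 FPKM in Lactobacillus recipients. Of 10 crypt stem cell markers 9 were tested, of which 4 were highest in Lactobacillus 4, 3 in Klebsiella 3 and 1 lowest in Lactobacillus 4. The shares of all genes tested were 20.6%, 14.5% and 17.8%. Lgr5, the marker of crypt base stem cells, named after its values were seen, was at 5.71, 4.78, 5.15 and 3.02 FPKM in Klebsiella recipients and 4.44, 6.68, 4.64 and 8.65 FPKM in Lactobacillus recipients, lowest in Klebsiella 4 and highest in Lactobacillus 4. The stem cell list summed to 209, 241, 254 and 179 FPKM in Klebsiella recipients and 211, 229.8, 253 and 253 FPKM in Lactobacillus recipients, so Klebsiella 3, Lactobacillus 3 and Lactobacillus 4 were level.

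The 8 smooth muscle genes summed to 2506, 2924, 3690 and 965 FPKM in Klebsiella recipients and 2403, 1418, 1779 and 2068 FPKM in Lactobacillus recipients. All 8 were lowest in Klebsiella 4, beside 19.2% of all genes tested. The 5 adipocyte genes summed to 1.90, 17.4, 9.88 and 20.04 FPKM in Klebsiella recipients and 39.7, 25.03, 58.4 and 240.2 FPKM in Lactobacillus recipients. The groups did not overlap in this sum, as was so for 2.99% of all genes tested. With limma, all 5 were lower in Klebsiella recipients at an unadjusted p under 0.05, beside 6.07% of all genes in either direction. Their median log2 difference was -2.01, and their smallest adjusted p was 0.774 with limma. All 5 were highest in Lactobacillus 4, beside 20.6% of all genes tested, and Plin1, a coat protein of fat droplets, was listed at 0 in Klebsiella 1. The epithelial markers were lowest in Lactobacillus 4 for 5 of 8 genes, beside 17.8% of all genes tested. The part of these tissue shares in the levels of the members was not tested. Of the markers of germinal centre B cells, which also divide, 3 of 6 passed the filter, and the list summed to 14.2 to 19.3 FPKM in Klebsiella and 16.9 to 19.998 FPKM in Lactobacillus recipients.

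**Figure D5:**
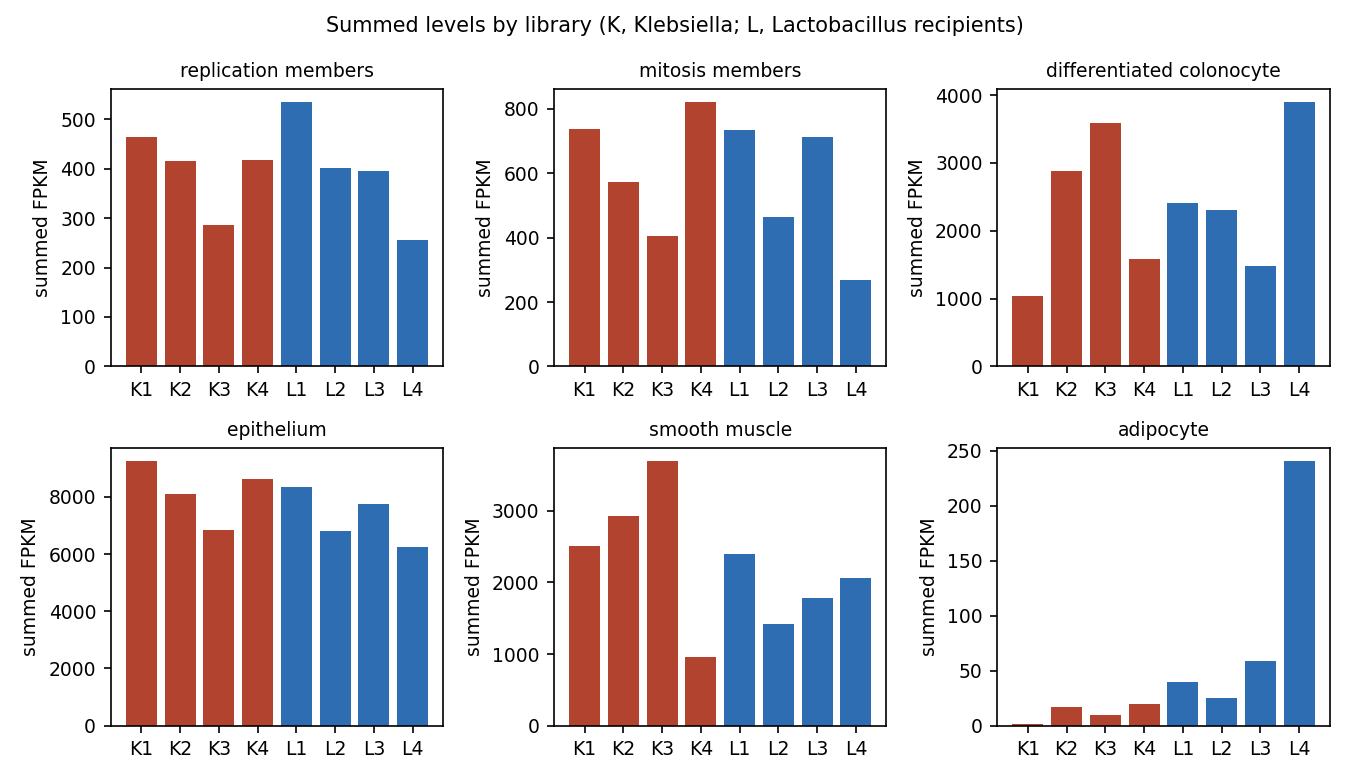
Summed FPKM (y axes, from 0) of the replication and mitosis members and of 4 marker lists in each library (x axis; K, Klebsiella; L, Lactobacillus recipients). K4 has the highest mitosis sum (821 FPKM) and the lowest smooth muscle sum (965 FPKM), and L4 has the lowest replication and mitosis sums and the highest colonocyte (3896 FPKM) and adipocyte (240.2 FPKM) sums.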

How the data were processed

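Total RNA taken with Trizol from frozen intestine was made into libraries with an Illumina TruSeq kit, per the labels. The tools named in the submitters' processing notes, in no order and with no role, are DESeq2 1.10.1, HTSeq 0.6.0, STAR 2.5.1b and CASAVA. Genome build, annotation and strand setting were not given in the sources used here. Deposited by the authors were FPKM values for 49585 gene identifiers. They also deposited read counts and the percent of mapped reads, of G or C and of bases at quality 30 for each library. Symbols for 49326 identifiers came from GENCODE M21, and overlaps of whole gene loci, introns included, from the same release.

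Values were analysed as log2(FPKM + 0.5), which understates the change of low genes, for 16865 genes with a mean of at least 0.5 FPKM. The group test was limma's, version 3.58.1 under R 4.3.3, two-sided, with a variance trend and Benjamini-Hochberg adjusted p-values, taken as Klebsiella minus Lactobacillus. The tests were checked on simulated data with less spread than most members had, so the check does not measure the power for them. Whole reads were recovered from FPKM for all 26963 genes above 0 in at least 2 libraries (relative tolerance 1e-12) and tested with voom as an alternative. Errors from read counts cover counting only, and if all reads of a gene share a divisor, it would be missed. Means over members have no p-value. Other alternatives were pseudocounts, filters, rescalings, array weights, a robust prior, a block by mouse number, a Hoxd13 covariate and left-out libraries. Python 3.11.15, numpy 2.4.6, pandas 2.3.3 and matplotlib 3.10.9 did the rest.

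The members, gene lists, alternatives and tests were chosen with earlier results of these data known. All members may be named. Values of every library are given for Mki67, Pcna and, of each role, the 4 members of smallest p and the highest by level. The 2 genes of smallest p from each other cell cycle list are named with a log2 difference. Values by library of Gmnn, Orc4, Cdkn2b, Cdkn1b, Cdkn2c, other members, Lgr5, Ern2 and marker genes were added after they were seen.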

Additional observations from a re-analysis of the deposited data

Results flagged for a closer look

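In 78 tests of whether 1 mouse stood apart from the other 3 of its group, 2 values did so, where chance gives about 1 in 20, or 3.9. Ccne2 was at 5.52 FPKM in Lactobacillus 1, while the other Lactobacillus recipients were at 3.07 to 3.42 FPKM. The mean log2 level of the replication members was 3.39 in Klebsiella 3, while the other Klebsiella recipients were at 3.95 to 4.04.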

How the results depend on the processing

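Under all 21 alternatives, 0 members and 0 genes passed an adjusted p under 0.05. The medians and the contrast moved by less than 1 SD within groups, but this limit was wide. The SD was 0.40 for the replication and 0.62 for the mitosis level, more than the medians themselves, so the limit cannot show that a direction held. Both medians fell below 0 without Lactobacillus 4. With libraries left out in turn, the median log2 difference ranged from -0.16 to 0.21 for replication and from -0.04 to 0.46 for mitosis members, and the contrast from -0.34 to -0.07. With log2 Hoxd13 as a covariate the medians were 0.28 and 0.57, and without the pair with high Hoxb6 0.23 and 0.40. The 4 Hox genes of gut position had themselves a median log2 difference of -0.41, so this covariate was not balanced between the groups. Without the pair with pancreatic transcripts the medians of the members were 0.06 and 0.47. Pcna changed sign to 0.019 with a constant total, 0.017 with median-of-ratios factors, 0.21 with Hoxd13, 0.16 without the Hoxb6 pair, 0.13 without Klebsiella 3, 0.14 without Lactobacillus 1 and 0.03 without Lactobacillus 2. Mki67 changed sign to -0.06 without Klebsiella 4 and -0.13 without Lactobacillus 4, and Mcm3 to -0.055 without Lactobacillus 4. Over libraries left out, Mki67 ranged from -0.13 to 0.29 and Pcna from -0.17 to 0.14. The causes were not tested. Without Lactobacillus 1, 2 members and 2004 genes had an unadjusted p under 0.05. Mouse numbers did not pair the mice (correlations of deviations 0.19, -0.10, -0.06 and -0.16); with the replicate block the mitosis median was 0.27, the replication median 0.06, the contrast -0.19, and 0 members were called. With 4 mice a group, a median SE of 0.37 for mitosis members limits what could be called.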

Other observations

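Some genes near the members in function were listed at very low levels or ran in an order of their own. Fen1, which trims the ends of new DNA fragments, was at 0.0848, 0.186, 0.0274 and 0.0771 FPKM in Klebsiella recipients and 0.139, 0.0676, 0.124 and 0 FPKM in Lactobacillus recipients, under the filter, although dividing cells use it. Orc1, a subunit of the origin recognition complex, was at 2.48, 4.18, 6.53 and 2.31 FPKM in Klebsiella recipients and 3.20, 5.48, 6.65 and 6.93 FPKM in Lactobacillus recipients. Its highest value was thus in Lactobacillus 4, where 35 of the 36 members were lowest, and its log2 difference was -0.52 (SE 0.33, adjusted p = 0.776 with limma). Ascl2, a factor of crypt stem cells, was at 4.76, 3.92, 5.27 and 3.19 FPKM in Klebsiella recipients and 3.92, 5.85, 7.001 and 8.72 FPKM in Lactobacillus recipients, highest in the same mouse. These 3 genes were chosen after their values were seen.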
